A study of Mus musculus with 2 samples.

Results

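The anterior Hoxd genes Hoxd1, Hoxd3, Hoxd4, Hoxd8 and Hoxd9 were followed in E12.5 mouse distal forelimbs, as 5 of the 23157 genes of the deposited transcript table. They were picked by gene symbol, with earlier results of the same libraries in view, so that their values are given as a description, with no test. RNA-seq libraries of poly(A)-selected RNA (TruSeq, stranded) were made from distal limb of strain C57Bl6CBAF1 at E12.5, 1 from wild-type embryos (labelled wtFL) and 1 from embryos of the HoxD Inv(TpSB1-Itga6) allele (labelled invDFL). This allele inverts 2.4 Mb of chromosome 2 beside the HoxD cluster, with the cluster itself outside the segment, and every cell of a mutant embryo carries it, since the study's methods state that inversions were analysed in homozygous embryos. The labels give dissection of 3 pairs of forelimbs, and no replicate library was analysed here. With 1 library per genotype no difference has a replicate check, and it cannot be told apart from any other difference between the 2 pools.

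Hox genes encode homeodomain transcription factors that pattern the body axis and the limbs, and the genes of a cluster lie in the order in which they are used along these axes. At HoxD, the posterior genes (Hoxd10 to Hoxd13) are transcribed strongly in the presumptive digits through enhancers on the centromeric side, past Evx2. The anterior genes, on the telomeric side towards Mtx2, are used in the early limb bud and in the trunk, and in the forearm domain the genes up to the middle of the cluster respond to enhancers of the telomeric side. Levels of Hoxd1 to Hoxd9 in distal forelimb tissue therefore read the part of the cluster that is least used in digits.

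The 5 genes lie on the + strand of chromosome 2 in GENCODE M21 (build GRCm38), whose positions were found through the transcript identifiers and were not converted from the mapping build NCBIM37. From the posterior side, Hoxd9 (ENSMUSG00000043342) spans 74697727 to 74700208 and Hoxd8 (ENSMUSG00000027102) spans 74704615 to 74707933. Hoxd4 (ENSMUSG00000101174) spans 74711929 to 74729160, Hoxd3 (ENSMUSG00000079277) spans 74711927 to 74748442 and Hoxd1 (ENSMUSG00000042448) spans 74762980 to 74765142. The spans of Hoxd3 and Hoxd4 start 2 bases apart because both genes have transcripts with a first exon upstream of Hoxd4. Sequence shown here is that of the promoters, since the genes differ there in base composition. RefSeq promoters (build GRCm38.p6) were matched for 5 of 5 genes and cut to the 250 bases before the gene start, and capitals mark matches on either strand to 5 motifs. These were TATAAA of the core promoter, the promoter element CCAAT, the nuclear receptor half-site known as AGGTCA, the letters TTTATG preferred by posterior HOX and CDX proteins, and TGATNNAT, a composite site of HOX proteins with their PBX partners. The 3 windows that do not reach into a first exon were Hoxd1 at chr2:74762730-74762979, Hoxd4 at chr2:74721728-74721977 and Hoxd8 at chr2:74704365-74704614.
Hoxd1: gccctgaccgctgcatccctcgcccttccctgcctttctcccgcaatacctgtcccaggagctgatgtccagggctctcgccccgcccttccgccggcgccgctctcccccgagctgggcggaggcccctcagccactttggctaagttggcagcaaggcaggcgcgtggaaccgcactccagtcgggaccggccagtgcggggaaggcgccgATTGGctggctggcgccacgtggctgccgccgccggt
Hoxd4: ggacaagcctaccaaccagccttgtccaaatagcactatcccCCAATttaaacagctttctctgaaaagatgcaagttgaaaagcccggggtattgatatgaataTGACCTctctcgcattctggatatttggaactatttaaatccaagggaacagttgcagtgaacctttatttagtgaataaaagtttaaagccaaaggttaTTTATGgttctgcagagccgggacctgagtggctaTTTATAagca
Hoxd8: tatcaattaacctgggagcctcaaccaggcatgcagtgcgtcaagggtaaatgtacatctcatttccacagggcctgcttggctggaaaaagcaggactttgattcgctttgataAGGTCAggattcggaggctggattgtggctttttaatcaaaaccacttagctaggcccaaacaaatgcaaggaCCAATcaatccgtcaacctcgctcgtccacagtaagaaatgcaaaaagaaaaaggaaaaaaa
The Hoxd1 window had 71.6% GC and 24 CpG, and the Hoxd4 window had 40.4% GC and 3 CpG, beside a median of 52.4% GC and 6 CpG over 32851 promoters. Hoxd8 (44.4% GC, 6 CpG) and Hoxd3 (49.2% GC, 12 CpG) lay nearer to that median, whereas Hoxd9 had 65.2% GC and 13 CpG. TATAAA was found in the Hoxd4 window alone among the 5 genes, and in 12.4% of all promoters. CCAAT was found in 4 of the 5 genes (33.8% of all promoters), AGGTCA in 3 (14.0%), TTTATG in 2 (10.8%) and TGATNNAT in 0 (7.68%). In the windows shown no match overlapped another, and these are matches of letters, not sites of binding.

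Values are normalized reads, that is the reads of a transcript over the size factor of its library, here summed per gene, in which 1 read is worth 1.0126 in the wild-type and 0.9876 in the inversion library. Intervals of 95% are exact (Poisson for a level, Clopper-Pearson for a ratio), describe counting error alone and set these libraries, not the genotypes, against each other. Log2 ratios are of inversion over wild type with a pseudocount of 1, which makes ratios on few reads smaller. Their intervals, and ratios not given as log2, are without a pseudocount, so that on few reads a log2 ratio and its interval are not of quite the same quantity. In these bulk samples, more cells of a type that transcribes a gene and more RNA per cell cannot be told apart.

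Hoxd3, Hoxd4, Hoxd8 and Hoxd9 had higher values in the inversion library, and Hoxd1 was near absent from both. Hoxd9, a group 9 gene at the border with the posterior genes, had 259.22 normalized reads (95% interval 228 to 293) in wild type and 420.71 (382 to 463) in the inversion library. Its log2 ratio was 0.70 (95% interval 0.47 to 0.93), from 256 and 426 reads. Hoxd8 had 136.7 normalized reads (115 to 162) in wild type and 285.42 (253 to 320) in the inversion library, with a log2 ratio of 1.06 (0.76 to 1.37). For both genes the intervals of the 2 libraries did not overlap.

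Hoxd4, a group 4 gene best known from the hindbrain and the cervical vertebrae, had 16.2 normalized reads (9.26 to 26.3) in wild type and 69.13 (53.9 to 87.3) in the inversion library. Its log2 ratio was 2.03 (1.29 to 2.98). Hoxd3, its group 3 neighbour with a known role in the first cervical vertebrae, had 18.23 normalized reads (10.8 to 28.8) in wild type and 138.26 (116 to 163) in the inversion library. This was a log2 ratio of 2.86 (2.21 to 3.72) and a ratio of 7.58 (4.63 to 13.2), from 18 and 140 reads. Here too the intervals of the libraries did not overlap, although the wild-type levels rest on fewer than 20 reads each. No share of all genes without overlap was computed to set beside this.

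Hoxd1, a group 1 gene with a known role in sensory neurons, had 1 read in the wild-type library (normalized level 1.01, 95% interval 0.0256 to 5.64) and 0 in the inversion library (0 to 3.64). Both are within the 3 reads that a count of 0 allows, so that no ratio is given. Of the 5 genes, 4 were higher in the inversion library, and 3 of the 4 with a mean of 10 or more normalized reads were at least 2-fold higher. Among all 16756 genes that passed this filter, 3.99% rose above that fold, 0.483% fell below it and 46.6% had a log2 ratio above 0. Over these 4 genes the log2 ratio had a median of 1.54, beside -0.02 for all genes that passed. Each of the 4 genes was above 10 in both libraries, so that none of them passed through the inversion library alone.

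**Figure D1:**
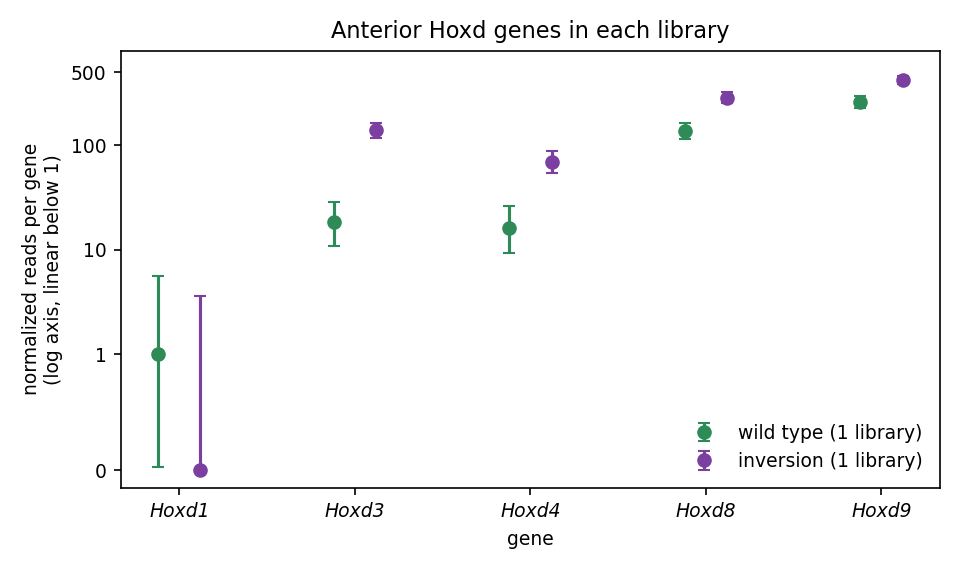
Normalized reads per gene (y axis, log scale that is linear below 1) for the 5 anterior Hoxd genes in the wild-type library (green) and the inversion library (purple), 1 library each, with bars giving exact Poisson 95% intervals. Hoxd3 went from 18.23 to 138.26 and Hoxd9 from 259.22 to 420.71, with intervals that do not overlap, and Hoxd1 stayed at 1.01 and 0.

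Background shares depended on the level. Of the 4925 genes with a mean of 10 to 100 normalized reads, where Hoxd3 and Hoxd4 lie, 10.7% were past 2-fold and 2.13% past 4-fold upwards. The ratios of Hoxd3 (7.58) and Hoxd4 (4.27) were both past 4-fold, and the 95th percentile of log2 ratios in that range was 1.49. Of the 8856 genes with a mean of 100 to 1000, where Hoxd8 and Hoxd9 lie, 1.48% were past 2-fold and 4.95% past 1.5-fold upwards. Hoxd8 was past 2-fold and Hoxd9 past 1.5-fold, and the 95th percentile of log2 ratios there was 0.58. The 4 genes thus lay above the 95th percentile of genes of like level, in a choice made with these values known.

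**Figure D2:**
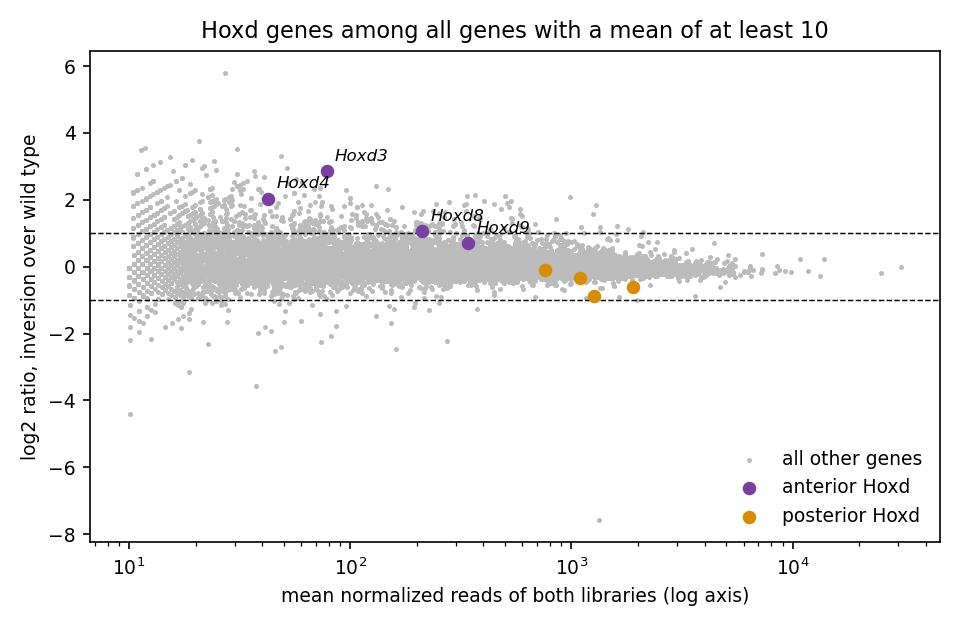
Log2 ratio of inversion over wild type (y axis) against the mean normalized reads of both libraries (x axis, log scale), 1 point per gene with a mean of at least 10, with dashed lines at 2-fold. Hoxd3 (2.86) and Hoxd4 (2.03) lie among the genes with few reads, Hoxd8 (1.06) and Hoxd9 (0.70) further right, and the posterior Hoxd10 to Hoxd13 (orange) between -0.86 and -0.10.

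Ratios to a neighbour within a library are free of the scaling of the libraries, and show change relative to that neighbour alone. The study's RT-qPCR found less Hoxd10 mRNA in the inversion, and a lower Hoxd10 also raises such ratios. Hoxd10, the nearest posterior gene, had 774 wild-type reads and 739 in the inversion library. Per 100 Hoxd10 reads there were 33.1 Hoxd9 reads (95% interval 28.6 to 38.1) in wild type and 57.6 (51.0 to 65.0) in the inversion library. Hoxd8 went from 17.4 (14.4 to 21) to 39.1 (34.0 to 44.9) per 100 Hoxd10 reads. Hoxd4 went from 2.07 (1.18 to 3.38) to 9.47 (7.3 to 12.1), and Hoxd3 from 2.33 (1.37 to 3.7) to 18.9 (15.7 to 22.7). In none of the 4 genes did the intervals overlap between libraries, and all 4 ratios rest on the same Hoxd10 reads. No share of all genes without overlap was computed. An exact binomial test on the reads, at an adjusted p of 0.05, called 12.3% of all genes higher and 7.87% lower. Differences past counting error were thus common between these libraries.

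As a share of all Hoxd reads, the 5 anterior genes took 6.78% in the wild-type library (426 of 6286 reads, Clopper-Pearson 95% interval 6.17 to 7.43%) and 18.3% in the inversion library (925 of 5067 reads, 17.2 to 19.3%). Hoxd3 and Hoxd4 together took 0.541% (0.375 to 0.755%) in wild type and 4.14% (3.61 to 4.73%) in the inversion library. Hoxd9 took 4.07% (3.6 to 4.59%) and 8.41% (7.66 to 9.21%), and Hoxd8 took 2.15% (1.8 to 2.54%) and 5.7% (5.08 to 6.38%). The share of Hoxd13, the main digit gene of the cluster, was 36.0% (34.8 to 37.2%) in wild type and 30% (28.8 to 31.3%) in the inversion library. Shares sum to the whole cluster, so that a lower value of the posterior genes alone also raises the anterior share. In normalized reads, the sum of the 5 anterior genes was 431.4 in wild type and 913.5 in the inversion library, and that of Hoxd10 to Hoxd13 was 5933.7 and 4090.5.

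Levels were compared between genes per kilobase of exon, on the union of the exons of each gene's listed transcripts. In wild type Hoxd9 was at 121 normalized reads per kilobase (107 to 137) and Hoxd8 at 49.8 (41.9 to 59.0), a 2.43-fold difference. Hoxd4 was at 6.33 (3.62 to 10.3), Hoxd3 at 3.15 (1.86 to 4.97) and Hoxd1 at 0.542 (0.0137 to 3.03). Levels per kilobase thus fell from Hoxd9 towards Hoxd1, and in that order the neighbours Hoxd4 and Hoxd3, and Hoxd3 and Hoxd1, had intervals that overlap. In the inversion library Hoxd9 was at 197 per kilobase (179 to 217), Hoxd8 at 104 (92.2 to 117), Hoxd4 at 27.0 (21.1 to 34.1), Hoxd3 at 23.9 (20.0 to 28.1) and Hoxd1 at 0 (0 to 1.95). The order of levels was the same, with Hoxd4 and Hoxd3 again overlapping and Hoxd3 and Hoxd1 now apart, and the steps between Hoxd9, Hoxd8, Hoxd4 and Hoxd3 were smaller. Hoxd8 was 7.87-fold above Hoxd4 per kilobase in wild type and 3.85-fold above it in the inversion library, and the step from Hoxd9 to Hoxd3 was 38.41-fold in wild type and 8.24-fold in the inversion library.

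Along the chromosome the log2 ratios went from 0.70 (Hoxd9) over 1.06 (Hoxd8) and 2.03 (Hoxd4) to 2.86 (Hoxd3). Intervals of neighbours overlapped in each of these steps, whereas those of Hoxd9 and Hoxd4 and those of Hoxd8 and Hoxd3 did not. The order by position is also the order by level per kilobase, so that position and level cannot be told apart as what the ratios follow. On the posterior side, Hoxd10 had a log2 ratio of -0.10 (-0.25 to 0.04) and Hoxd11, Hoxd12 and Hoxd13 had -0.35, -0.86 and -0.61. Past them Evx2 had -0.90 and Lnp -0.36, and Gm28309, which overlaps Hoxd11 and Hoxd10 on the same strand, had -0.36. On the telomeric side the cluster's neighbour Mtx2, which encodes a mitochondrial outer membrane protein, had 0.02 (-0.15 to 0.19). Higher values in the inversion library thus lay between Hoxd10 and Mtx2.

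Non-coding genes between Hoxd10 and Mtx2 had few reads. Gm14396, a long non-coding RNA gene between Hoxd10 and Hoxd9, had 15 wild-type reads and 43 in the inversion library, giving a log2 ratio of 1.42 (0.61 to 2.44). Hoxd3os1 (listed as 1700109F18Rik), which overlaps Hoxd8 on the other strand, had 6 and 16 reads, and its interval of the log2 ratio included 0 (-0.05 to 3.02). Haglr (listed as 6720416L17Rik), antisense and upstream of Hoxd1, had 1 wild-type read and 10 in the inversion library, a ratio of 9.78 with a counting interval of 1.39 to 423. These 3 genes had higher values in the inversion library, each on few reads. Mir10b, the microRNA gene upstream of Hoxd4, had 1 and 0 reads and Gm14424 had 2 and 0, within the floor of 3 reads. Whether reads were assigned by strand is not given in the sources used here, so that reads of Hoxd8 and Hoxd3os1 may not be told apart.

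**Figure D3:**
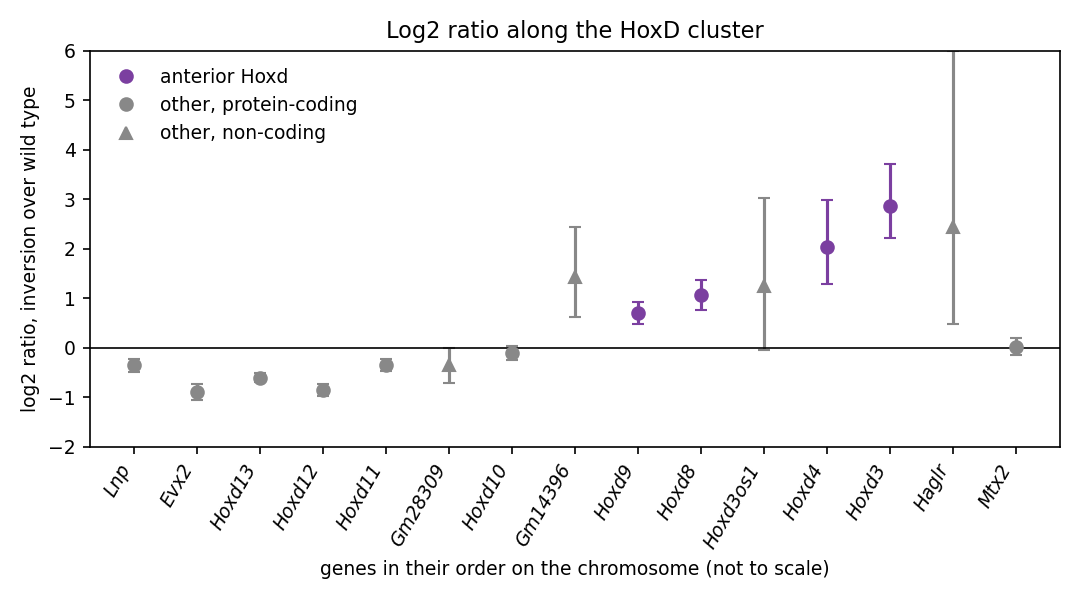
Log2 ratio of inversion over wild type (y axis) for genes from Lnp to Mtx2 in their order on the chromosome (x axis, not to scale), anterior Hoxd genes in purple and others in grey (triangles for non-coding genes), with bars giving exact 95% intervals of counting error. Hoxd9, Gm14396, Hoxd8, Hoxd4 and Hoxd3 lie above 0 with their intervals, Hoxd10 (-0.10) and Mtx2 (0.02) at 0, Hoxd1 is not drawn because it had 1 and 0 reads, and the upper end of the Haglr bar (8.73) is beyond the axis.

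At the level of transcripts, the 5 genes had 14 listed transcripts, all 14 with reads in at least 1 library. Apart from that of Hoxd1, 13 of 13 had a higher value in the inversion library. No share over all transcripts was computed to set beside this count. Transcripts without reads were also fewer in the inversion library (4.97%) than in wild type (8.01%). Transcripts of a gene share exons and reads, so that they are not independent of each other.

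Transcripts of Hoxd8 took shares of its reads whose intervals overlapped between the libraries. ENSMUST00000019749 had 90.12 normalized reads in wild type against 183.69 in the inversion library (log2 ratio 1.02, 0.66 to 1.41), and its share was 65.9% (57.3 to 73.9%) and 64.4% (58.5 to 69.9%). ENSMUST00000074721 had 31.39 and 67.16 (log2 ratio 1.07, 0.46 to 1.76), with shares of 23.0% (16.2 to 31.0%) and 23.5% (18.8 to 28.9%). ENSMUST00000151380, which starts in an upstream first exon, had 15.19 and 34.57 (log2 ratio 1.14, 0.28 to 2.17), with shares of 11.1% (6.35 to 17.7%) and 12.1% (8.58 to 16.4%). Each of the 3 log2 ratios lay inside the intervals of the others. The first and the second of these splice the coding exons of Hoxd8 at acceptors 3 bases apart, with introns of 395 and 398 bases, and are shown because that is how their coding parts differ, with the extra bases in capitals and 30 bases on each side of the junction (GENCODE M21, GRCm38).
ENSMUST00000019749: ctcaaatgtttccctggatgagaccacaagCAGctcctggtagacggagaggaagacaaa
ENSMUST00000074721: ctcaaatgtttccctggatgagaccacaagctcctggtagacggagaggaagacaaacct
There are 3 extra bases, so that the reading frame goes on. ENSMUST00000074721 has 0 exon bases of its own, so that reads away from this junction fit ENSMUST00000019749 as well.

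Reads of Hoxd4 came from ENSMUST00000047904, which starts at the promoter shown above, with 9.11 normalized reads in wild type against 46.42 in the inversion library (log2 ratio 2.23, 1.3 to 3.56). ENSMUST00000111980, which starts nearer the coding exons, had 7.09 and 22.71 (log2 ratio 1.55, 0.41 to 3.14). The share of the first among Hoxd4 reads was 56.2% (29.9 to 80.2%) in wild type and 67.1% (54.9 to 77.9%) in the inversion library, with intervals that overlap. ENSMUST00000111980 has 0 exon bases that no other listed transcript holds.

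Hoxd3 and Hoxd4 overlap, and the table's symbols and GENCODE M21 divide their transcripts differently. Of the 7 transcripts listed as Hoxd3, 2 belong to other genes in M21. The transcript with most Hoxd3 reads, ENSMUST00000053932, had 6 wild-type reads and 63 from the inversion, a log2 ratio of 3.16 (2.15 to 4.86). In M21 it is Gm28230, a read-through transcript of 4 exons typed as a target of nonsense-mediated decay, the pathway that degrades mRNAs with an early stop codon. Of its 3527 exon bases, 1154 are shared with Hoxd4 and 2225 with Hoxd3 as M21 defines these genes, and 148 with neither. It joins the Hoxd4 coding exons to the Hoxd3 exons over an intron of 15245 bases. Its last Hoxd4 junction is shown beside that of ENSMUST00000111980, because the acceptor lies 97 bases further on and the reading frame of Hoxd4 is not kept. Capitals mark the exon after the junction, with 15 bases on each side (GENCODE M21, GRCm38).
ENSMUST00000111980: tgcacgtgaattcggTGAACCCCAACTACA
ENSMUST00000053932: tgcacgtgaattcggGTATCTGACCAGGCG
The share of ENSMUST00000053932 among the reads listed as Hoxd3 was 33.3% (13.3 to 59.0%) in wild type and 45.0% (36.6 to 53.6%) in the inversion library.

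Transcripts that are Hoxd3 alone were higher in the inversion library as well. ENSMUST00000111983, whose first exon lies upstream of Hoxd4 and which splices over an intron of 31611 bases, had 3 wild-type reads and 34 in the inversion library, a ratio of 11 with a counting interval of 3.48 to 56.2. Those with first exons between Hoxd4 and Hoxd3 had 0 and 7 reads (ENSMUST00000144544, at least 2.27-fold higher against a floor of 3 reads, with a lower counting limit of 1.41), 1 and 11 (ENSMUST00000111982, ratio 10.8, 1.56 to 462) and 1 and 8 (ENSMUST00000047830, ratio 7.82, 1.05 to 346). ENSMUST00000140666 had 1 and 4 reads, a ratio of 3.91 whose interval includes 1 (0.386 to 192). ENSMUST00000144040, a non-coding transcript of Hoxd4 in M21, had 6 and 13 reads, a log2 ratio of 0.97 (-0.42 to 2.76), and 0 exon bases of its own. Transcripts with different annotated starts of Hoxd3 thus had higher values, each on few reads. Exon bases in no other listed transcript were 355 of 2968 (ENSMUST00000111983), 191 of 2413 (ENSMUST00000111982) and 85 of 2292 (ENSMUST00000047830). Reads of 1 start may therefore have been counted for another, and the use of single starts was not tested.

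**Figure D4:**
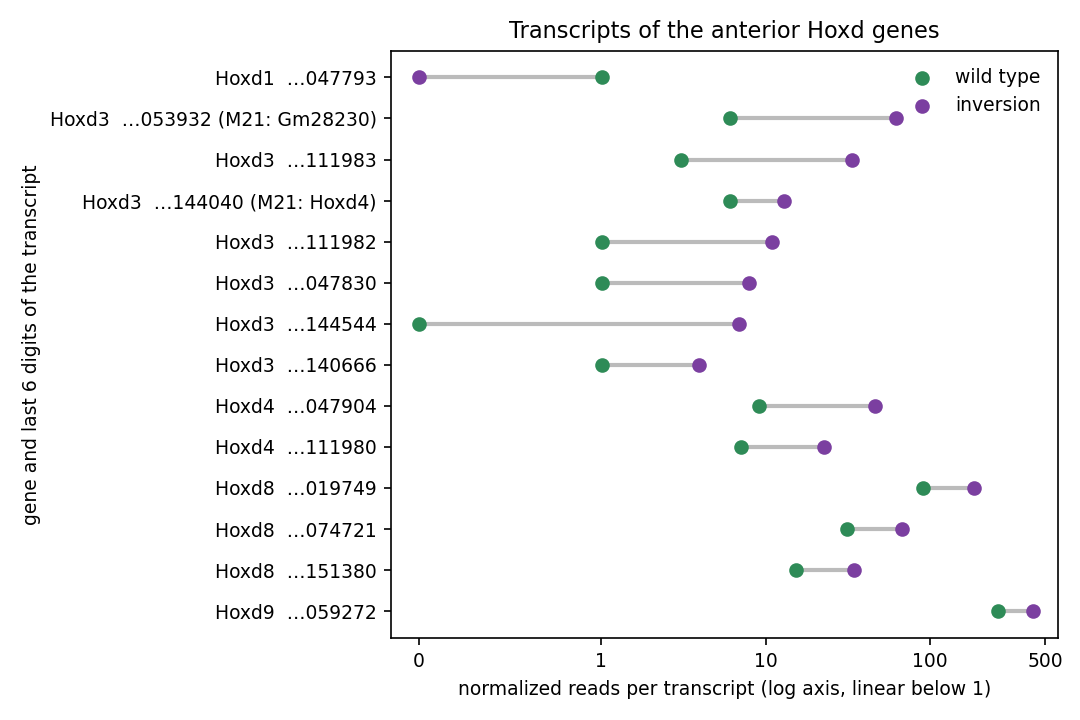
Normalized reads per transcript (x axis, log scale that is linear below 1) in the wild-type library (green) and the inversion library (purple) for the 14 transcripts of the anterior Hoxd genes, with a grey line joining the 2 values of a transcript. Purple lies to the right of green for each transcript but that of Hoxd1, and ENSMUST00000053932 of Hoxd3 (Gm28230 in M21) goes from 6.08 to 62.22.

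Each transcript listed as Hoxd3 or Hoxd4 was higher in the inversion library, so that any grouping of whole transcripts gives higher values by construction. The groupings below therefore show the size of the ratios alone. Another assignment of the shared reads to transcripts was not tested. Under the M21 genes, Hoxd3 had 6 wild-type reads and 64 in the inversion library (log2 ratio 3.18, 2.18 to 4.88) and Hoxd4 had 22 and 83 (log2 ratio 1.83, 1.19 to 2.63). Taken as 1 unit, the transcripts listed as Hoxd3 and Hoxd4 had 34 and 210 reads, a log2 ratio of 2.56 (2.06 to 3.16). The 2 symbols share 1724 exon bases, which are 67.3% of those of Hoxd4 and 29.8% of those of Hoxd3. How reads common to several transcripts were counted is not given in the sources used here, so that the division of reads between Hoxd3 and Hoxd4 is uncertain.

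Genes of the same paralogy groups in the HoxA, HoxB and HoxC clusters, on chromosomes that the inversion does not touch, were read in the same way. Of 11 listed paralogues 10 were found and 8 passed the filter, of which 7 had a log2 ratio above 0 and 1 below, with a median of 0.50. In group 9, Hoxa9 had 607.55 normalized reads in wild type against 977.7 in the inversion library, with a log2 ratio of 0.69 (0.54 to 0.84) beside 0.70 for Hoxd9. Hoxb9 had 36.45 and 109.62, a log2 ratio of 1.56 (1.03 to 2.17), and Hoxc9 had 30.38 and 18.77, with -0.67 (-1.61 to 0.18). The ratio of Hoxd9 thus lay inside the range of its own paralogues.

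In group 3, Hoxa3 had 151.89 normalized reads in wild type against 263.68 in the inversion library, with a log2 ratio of 0.79 (0.50 to 1.09), whose interval did not reach that of Hoxd3 (2.21 to 3.72). Hoxb3 had 9.11 and 2.97 and did not pass the filter. In group 4, Hoxa4 had a log2 ratio of 0.64 (-0.34 to 1.75), Hoxb4 of 0.25 (-0.89 to 1.44) and Hoxc4 of 0.09 (-0.81 to 0.99), beside 2.03 (1.29 to 2.98) for Hoxd4. The intervals of Hoxa4 and Hoxb4 overlapped that of Hoxd4 and the interval of Hoxc4 did not. In group 8, Hoxb8 had 11.13 and 7.91 normalized reads and Hoxc8 9.11 and 11.85 (log2 ratio 0.35, -0.99 to 1.81), beside 1.06 for Hoxd8.

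**Figure D5:**
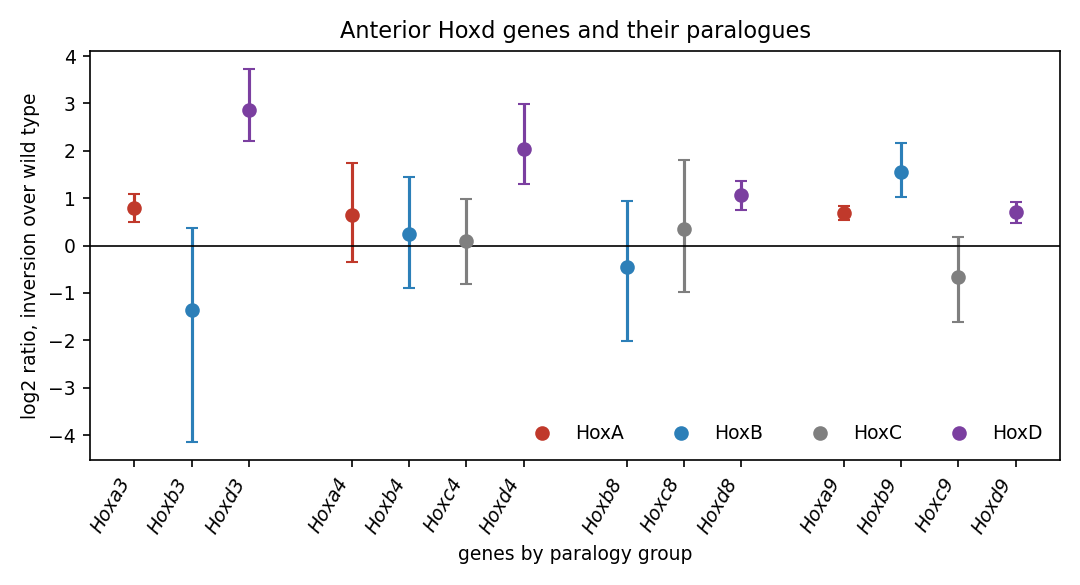
Log2 ratio of inversion over wild type (y axis) for the anterior Hoxd genes (purple) and their paralogues in HoxA (red), HoxB (blue) and HoxC (grey), grouped by paralogy group along the x axis, with bars giving exact 95% intervals of counting error. Hoxd3 (2.86) lies above Hoxa3 (0.79), while Hoxd9 (0.70) lies beside Hoxa9 (0.69) and below Hoxb9 (1.56).

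TALE homeodomain proteins of the PBX, MEIS and PKNOX families bind DNA together with HOX proteins. Of their 9 genes, 3 had a log2 ratio above 0 and 6 below, with a median of -0.09 and a range of -0.34 (Meis2) to 0.60 (Pbx4). Past 2-fold there were 0 in either direction. RNA of these 9 genes was read in both libraries, with a summed level of 5178.4 normalized reads in wild type against 4911.3 in the inversion library. Protein was not measured, nor which cells held this RNA.

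By distance on log2 normalized reads over the 2 libraries, the genes most like Hoxd9 were Mamdc4 (0.023) and Tcirg1 (0.058), and those most like Hoxd8 were Evx1 (0.035) and Sfmbt2 (0.046). Hoxd4 was nearest to 2810055G20Rik (0.15) and Aspn (0.262), and Hoxd3 to Comp (0.374) and C230035I16Rik (0.377). With 2 libraries this likeness is one of 2 levels.

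The libraries held 9280660 (wild type) and 9466154 (inversion) reads. Markers of other cells and regions also differed between them, some lists higher and some lower in the inversion library. Of 8 distal limb markers, which include Hoxd13 (2292.48 normalized reads in wild type against 1503.09 in the inversion library), 7 were found, with a summed level of 9468.6 normalized reads in wild type against 8314.4 in the inversion library, and the forelimb gene Tbx5 had 1683.9 and 1934.7, so that the labelled tissue was read in both. Hoxa9 (also among the paralogues), Hoxa10 and Hoxa11, which mark the intermediate limb, were higher in the inversion library in 3 of 3 (sum 2210.5 and 3187.9). Of 5 proximal markers, which include Meis1 and Meis2 of the TALE list, 1 was higher and 4 were lower. The higher one was Shox2 (380.74 and 715.01), so that their higher sum (1389.3 and 1527.8) came from Shox2 alone. Muscle markers were higher in 7 of 8, with a summed level of 1003.5 in wild type and 2319.8 in the inversion library, and cartilage markers in 5 of 6. Axial mesoderm markers, of which 4 of 5 were found, summed to 1985.7 and 2333.7, with 3 higher and Pax1, on few reads, lower (12.16 and 3.96). The neural list summed to 273.4 and 347.6, with Sox1, Neurog1 and Neurog2 not found. Schwann cell and erythroid lists had sums in the inversion library of 1.06 and 0.832 times those of wild type, and those of the hindlimb genes Tbx4 and Pitx1 were 480.0 and 417.8. The 4 Y-linked genes summed to 836.4 in wild type and 2785.0 in the inversion library, and Xist had 2607 and 13 reads, so that the pools also differed by the sex of the embryos. The part of these differences in the values of the anterior Hoxd genes was not tested.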

How the data were processed

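Stranded poly(A) RNA-seq reads of both libraries were mapped by the authors to NCBIM37 and assigned to transcripts with the HTSstation pipeline, and the submitters' processing notes name Bowtie2. The deposited table holds, as signal, the reads of a transcript over the size factor of its library, for 64053 transcripts. Its columns of fold change, log2 fold change, p-value and adjusted p-value are the authors' own comparison and were not used. The values did not depend on transcript length, although the study's methods name RPKM.

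A value of 0.5 stands for no reads (8.01% of transcripts in wild type, 4.97% in the inversion library) and was read as 0. Whole reads were recovered from 100% of the other values, within a tolerance of 0.011 reads. Transcripts were summed by symbol. As each genotype has 1 library, no test result is given for the genes described. Intervals are exact at 95%, and background shares are over genes averaging 10 or more normalized reads. An added exact binomial test on the recovered reads, with Benjamini-Hochberg adjustment, called 2068 genes higher (12.3%) and 1318 lower (7.87%). It compares reads of these libraries, not the genotypes, and its calls are used as a count over all genes alone.

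Positions, exons and transcript types are those of GENCODE M21 (GRCm38), matched by identifier for 88.1% of transcripts. The genes, lists and thresholds were chosen with earlier results of these data known. Genes were named by rule: the 5 genes and their transcripts, the genes from Lnp to Mtx2, paralogues, TALE genes and the 2 most alike genes of each. Of the lists, 1 gene is not reported here and was left out of counts and sums. Alternatives were scaling by total reads or upper quartile, no filter, a minimum mean of 100, pseudocounts of 0.1 and 5, thresholds of 1.5-fold and 4-fold, the highest transcript per gene, protein-coding transcripts alone, and Hoxd3 with Hoxd4 as 1 unit. Steps were tested on simulated data. Scripts ran in Python 3.11.15 with scipy 1.17.1, pandas 2.3.3, numpy 2.4.6 and matplotlib 3.10.9.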

Additional observations from a re-analysis of the deposited data

How the results depend on the processing

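No paired analysis was possible because each genotype has 1 library. Over the alternatives that keep the genes apart, the log2 ratio of Hoxd3 ranged from 2.62 to 3.18 and that of Hoxd4 from 1.81 to 2.23. Taken as 1 unit they had 2.56. That of Hoxd8 ranged from 1.02 to 1.06 and that of Hoxd9 from 0.68 to 0.70. Of 56 transcript values under other scalings and pseudocounts, 0 changed sign. A pseudocount added to both libraries cannot change it, and the scalings moved values little, so that this count says little. Of 246 values recomputed, 16 moved and none reversed. With a mean of at least 100, which removes Hoxd3 and Hoxd4, 2 anterior Hoxd genes were above 0 and 1 was past 2-fold, with a median of 0.88, and 2 paralogues and 1 TALE gene were above 0. Of all genes that passed the filter, 668 were higher and 81 lower by 2-fold or more. These became 1992 and 1089 without a filter, 139 and 12 with the minimum of 100, 1577 and 341 at 1.5-fold and 113 and 13 at 4-fold, and protein-coding transcripts alone left 412 higher. Chosen after seeing the data were the M21 grouping, the level ranges of 10 to 100 and 100 to 1000, and the exact binomial test. This test called 2068 genes higher and 1318 lower. Ratios to Hoxd10, shares of Hoxd reads and levels per kilobase were not planned beforehand either. Depth limits Hoxd1, which a count of 0 leaves undecided at up to 3 reads, and the single Hoxd3 transcripts, with 0 to 6 reads in wild type.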
